A study of Homo sapiens with 6 samples.

Results

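The clade B serpins are a family of protease inhibitors that, unlike most serpins, lack a classical signal peptide and act mainly inside cells. The 10 genes described here are SERPINB1, SERPINB2, SERPINB3, SERPINB4, SERPINB5, SERPINB6, SERPINB7, SERPINB8, SERPINB9 and SERPINB13, chosen by name from the 23024 gene symbols of the deposited table. They were picked with the difference between the groups already known, so their levels and differences are given as a description, with no test. RNA was sequenced from the human bladder carcinoma cell line 5637, in 6 libraries. The 3 sh-RAD51C libraries, labelled as RAD51C knockdown, came from cells with a hairpin RNA that targets RAD51C, and the 3 NC libraries were labelled WT; total RNA was taken from transfected cells throughout. The meaning of NC, the hairpin sequence and the number of cultures behind each group are left unsaid by the labels, so p-values measure the spread between libraries, which may be technical.

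A serpin offers its target protease a bait loop, is cut, and traps the protease in a covalent complex, so each inhibitor molecule is used up in a single reaction. Members of clade B differ in the proteases they take: some trap serine proteases of neutrophils, mast cells or killer lymphocytes, some trap lysosomal cysteine cathepsins, and at least SERPINB5 does not act as a classical inhibitor. Several are abundant in stratified and squamous epithelia. In the human genome the family lies in a cluster on chromosome 18 and a smaller one on chromosome 6. The comparison asks how expression differs when RAD51C, a gene of homologous recombination, is lowered in these cells.

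SERPINB3 and SERPINB4 carried the largest differences of the family, and the DNA ahead of both genes is shown first because the pair can hardly be told apart there. The sequences below are the 250 bases before the RefSeq transcript start on GRCh38.p14, both read from the minus strand of chromosome 18, at chr18:63661894-63662143 for SERPINB3 and chr18:63644257-63644506 for SERPINB4. Capitals mark the 3 bases that differ.
SERPINB3: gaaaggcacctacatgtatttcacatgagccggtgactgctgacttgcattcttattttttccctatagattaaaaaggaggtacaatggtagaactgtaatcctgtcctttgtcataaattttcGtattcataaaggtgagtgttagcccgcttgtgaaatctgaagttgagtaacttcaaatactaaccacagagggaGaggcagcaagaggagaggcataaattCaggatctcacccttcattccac
SERPINB4: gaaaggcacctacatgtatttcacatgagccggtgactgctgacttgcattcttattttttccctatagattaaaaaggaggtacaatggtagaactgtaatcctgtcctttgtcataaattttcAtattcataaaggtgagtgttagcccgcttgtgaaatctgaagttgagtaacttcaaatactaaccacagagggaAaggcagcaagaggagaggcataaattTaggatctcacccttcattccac

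Members with higher levels, lower levels and like levels in sh-RAD51C libraries were compared for the letters TGANTCA, the core of sites bound by AP-1 factors, which read the same on both strands. These letters were in 6 of the 15 RefSeq start windows of the family, from 5 of the 10 genes, against 7.71% of all 35116 windows of the same length in the genome. The genes holding them were SERPINB2 and SERPINB7, both higher in sh-RAD51C, SERPINB13, which was lower, and SERPINB5 and SERPINB8, which differed little. Stretches of 61 bases from the plus strand, with TGANTCA in capitals, are shown for a gene of each kind, at chr18:63887576-63887636, chr18:63587229-63587289 and chr18:63969869-63969929 on GRCh38.p14. In capitals the stretch of SERPINB13 has the AP-1 core TGACTCA, while those of SERPINB2 and SERPINB8 have TGAATCA.
SERPINB2: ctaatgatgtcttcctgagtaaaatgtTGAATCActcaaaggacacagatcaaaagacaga
SERPINB13: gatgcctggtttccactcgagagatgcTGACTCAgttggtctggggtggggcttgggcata
SERPINB8: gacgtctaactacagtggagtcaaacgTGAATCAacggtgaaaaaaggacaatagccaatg
The windows of SERPINB3 and SERPINB4 lack TGANTCA. Both hold CATTCC, the core letters of sites bound by TEAD factors, starting at position -8 from the start. No other member window holds CATTCC or its reverse complement GGAATG. These letters were thus in 2 of the 15 member windows, close to the 14% of all windows that hold them. The 2 windows are near copies, with 4 differences in 300 bases, so they are not separate observations. No member window held both motifs. The motifs were chosen with the expression values known.

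Inferred depth ran from 37104318 to 38079825 reads in sh-RAD51C libraries and from 36068282 to 37560184 reads in NC libraries. RAD51C itself was at 3.51, 3.09 and 2.95 FPKM (fragments counted per kilobase of gene, scaled to the size of the library) in sh-RAD51C 1, 2 and 3, against 14.7, 13.2 and 13.6 FPKM in NC 1, 2 and 3. Of markers of the basal urothelium, 6 of 7 were lower in sh-RAD51C by the test described below and 1 was higher, with a summed level of 639 to 678 FPKM in sh-RAD51C libraries and 1346 to 1414 FPKM in NC libraries. GATA3 and PPARG of the luminal list were present and higher, but of its defining genes the uroplakin UPK2 reached at most 0.225 FPKM in sh-RAD51C and 0.228 FPKM in NC, and UPK1A, UPK1B, UPK3A and the keratin KRT20 were at or near 0. The myeloid markers, some of whose cells also use SERPINB1, SERPINB2 and SERPINB9, summed to between 0.504 and 1.16 FPKM in sh-RAD51C and between 1.52 and 1.91 FPKM in NC, led by CD14, with PTPRC near 0. Lymphoid markers summed to at most 0.0242 FPKM in sh-RAD51C and 0.0324 FPKM in NC. Fibroblast markers, led by COL1A1, summed to between 6.62 and 7.38 FPKM in sh-RAD51C and between 9.74 and 10.5 FPKM in NC, and endothelial markers to at most 0.414 FPKM in sh-RAD51C and 0.207 FPKM in NC. The part of these markers in the results below was not tested, and in bulk RNA fewer cells of a type and less RNA per cell cannot be told apart.

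SERPINB3 and SERPINB4, first found as squamous cell carcinoma antigens, were an order of magnitude lower in sh-RAD51C. SERPINB3, an inhibitor of the cysteine cathepsins L, K and S, was at 3.17, 2.56 and 3.64 FPKM in sh-RAD51C 1, 2 and 3, against 28.9, 29.1 and 23.4 FPKM in NC 1, 2 and 3. Every sh-RAD51C library was far below every NC library, and the means were 3.12 ± 0.542 FPKM and 27.2 ± 3.23 FPKM (SD, n = 3 each), 8.7-fold lower in sh-RAD51C. On the log2(FPKM + 1) scale used for all differences here, which understates changes of low genes, the difference was -2.77 ± 0.10 (SE), larger in size than that of 99.9% of the genes tested.

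SERPINB4, which traps the serine proteases cathepsin G and chymase, was at 0.634, 0.545 and 0.68 FPKM in sh-RAD51C 1, 2 and 3, against 7.43, 8.93 and 7.1 FPKM in NC 1, 2 and 3. Again the groups lay far apart, with means of 0.62 ± 0.0686 FPKM and 7.82 ± 0.975 FPKM (SD, n = 3 each), 12.6-fold lower in sh-RAD51C, and a log2 difference of -2.44 ± 0.08 (SE). The sh-RAD51C values of SERPINB4 rest on 43, 36 and 46 inferred reads, and those of SERPINB3 on 206, 162 and 236. SERPINB3 lies at chr18:63655197-63661963 and SERPINB4 at chr18:63637259-63644298 in GENCODE 29 on GRCh38, both on the minus strand, and SERPINB3 overlaps SERPINB11 on the other strand.

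The similarity of the 2 genes bears on how far their values can be read separately. Their coding sequences were 95.2% identical over 1173 bases, where the next closest of the 45 pairs in the family, SERPINB8 and SERPINB9, shared 72.8%. Of the 100-base windows of the SERPINB3 transcript 3.4% also occurred in SERPINB4, as did 23.9% of its 50-base windows, and no 150-base window did. No other pair of members shared a window of 50 bases or more. Neither the read length nor the handling of reads that match both genes is stated, so the split between the pair is uncertain. Added together, the pair was at 3.80, 3.10 and 4.32 FPKM in sh-RAD51C and at 36.4, 38.0 and 30.5 FPKM in NC. SERPINB3 exceeded SERPINB4 by 5.00, 4.69 and 5.35 times in sh-RAD51C 1, 2 and 3, against 3.89, 3.26 and 3.30 times in NC 1, 2 and 3, so the deposited ratio did not overlap between the groups.

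SERPINB13, also called hurpin or headpin and an inhibitor of cathepsins L and K, adjoins this pair on chromosome 18 (chr18:63586989-63604639). Its level was 0.343, 0.232 and 0.434 FPKM in sh-RAD51C 1, 2 and 3, against 2.51, 2.4 and 2.32 FPKM in NC 1, 2 and 3. The groups were well separated, at means of 0.337 ± 0.101 FPKM and 2.41 ± 0.0962 FPKM (SD, n = 3 each), 7.15-fold lower in sh-RAD51C on 53, 35 and 67 inferred reads. Because its level was low, the log2 difference of -1.35 ± 0.08 (SE) understates that ratio.

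Among sh-RAD51C libraries SERPINB3, SERPINB4 and SERPINB13 were each highest in sh-RAD51C 3 and lowest in sh-RAD51C 2, as was SERPINB5. Among NC libraries the 3 genes were lowest in NC 3, as were SERPINB1 and SERPINB9, and the highest library was NC 2 for SERPINB3 and SERPINB4 and NC 1 for SERPINB13. SERPINB3 varied by a CV (SD as a percentage of the mean) of 17.4% in sh-RAD51C and 11.9% in NC, where counting error alone would give 7.05% and 2.41%. For SERPINB4 the CV was 11.1% in sh-RAD51C, under the 15.5% of counting error, and 12.5% in NC, above 4.4%. For SERPINB13 it was 30.0% in sh-RAD51C, above the 13.9% of counting error, and 4.00% in NC, under 5.26%.

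SERPINB1 and SERPINB9, which guard cells against granule proteases, were lower by about the same factor. SERPINB1, an inhibitor of neutrophil elastase, cathepsin G and proteinase 3, was at 11.9, 12.4 and 11.4 FPKM in sh-RAD51C 1, 2 and 3, against 23.0, 23.9 and 22.7 FPKM in NC 1, 2 and 3. The groups were tight and apart, with means of 11.9 ± 0.512 FPKM and 23.2 ± 0.646 FPKM (SD, n = 3 each), a 1.95-fold lower level in sh-RAD51C and a log2 difference of -0.91 ± 0.045 (SE). SERPINB9, which blocks granzyme B of cytotoxic lymphocytes, was at 1.31, 1.26 and 1.26 FPKM in sh-RAD51C 1, 2 and 3, against 2.7, 2.94 and 2.57 FPKM in NC 1, 2 and 3. It too had no overlap, at means of 1.28 ± 0.0299 FPKM and 2.74 ± 0.184 FPKM (SD, n = 3 each), 2.15-fold lower in sh-RAD51C with a log2 difference of -0.71 ± 0.07 (SE). Both lie on the minus strand of chromosome 6, SERPINB1 at chr6:2832332-2842006 and SERPINB9 at chr6:2887266-2903280, in a cluster that also holds SERPINB6.

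SERPINB2 and SERPINB7 were the members with higher levels in sh-RAD51C. SERPINB2, a plasminogen activator inhibitor that traps urokinase, was at 58.6, 53.8 and 58.3 FPKM in sh-RAD51C 1, 2 and 3, against 26.4, 26.9 and 29.8 FPKM in NC 1, 2 and 3. All sh-RAD51C libraries were above all NC libraries, with means of 56.9 ± 2.67 FPKM and 27.7 ± 1.84 FPKM (SD, n = 3 each), 2.05-fold higher in sh-RAD51C, and a log2 difference of 1.01 ± 0.05 (SE). The gene, at chr18:63871692-63903890, overlaps SERPINB10 on the same strand, whose level was at most 0.121 FPKM in any library.

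SERPINB7, or megsin, a serpin of the epidermis and of kidney mesangial cells, was the least abundant member in NC. It was at 0.981, 1.25 and 1.18 FPKM in sh-RAD51C 1, 2 and 3, against 0.5, 0.458 and 0.492 FPKM in NC 1, 2 and 3, on 87, 108 and 104 inferred reads and on 42, 40 and 43 reads. The groups did not overlap, and the means of 1.14 ± 0.139 FPKM and 0.483 ± 0.0225 FPKM (SD, n = 3 each) were 2.35-fold higher in sh-RAD51C. With a mean of 0.809 FPKM over the 6 libraries it was under the filter of 1 FPKM and so had no place in the fit. Its log2 difference was 0.52, and the gene lies at chr18:63752935-63805376.

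SERPINB5, SERPINB6 and SERPINB8 differed least. SERPINB5, known as maspin and the most abundant member in both groups, was at 66.2, 60.4 and 66.8 FPKM in sh-RAD51C 1, 2 and 3, against 67.1 to 72.8 FPKM in NC. The groups fell just short of touching, and the log2 difference was -0.12 ± 0.05 (SE). SERPINB6, an inhibitor of cathepsin G, was at 9.77 to 11 FPKM in sh-RAD51C and 10.6 to 11.3 FPKM in NC, with overlapping groups and a log2 difference of -0.08 ± 0.06 (SE). SERPINB8, which inhibits the proprotein convertase furin, was at 12.4 to 13.1 FPKM in sh-RAD51C and 12 to 13.1 FPKM in NC, also overlapping, with a log2 difference of 0.03 ± 0.05 (SE). SERPINB8 overlaps HMSD on the same strand, and whether counting used strand is not stated.

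**Figure D1:**
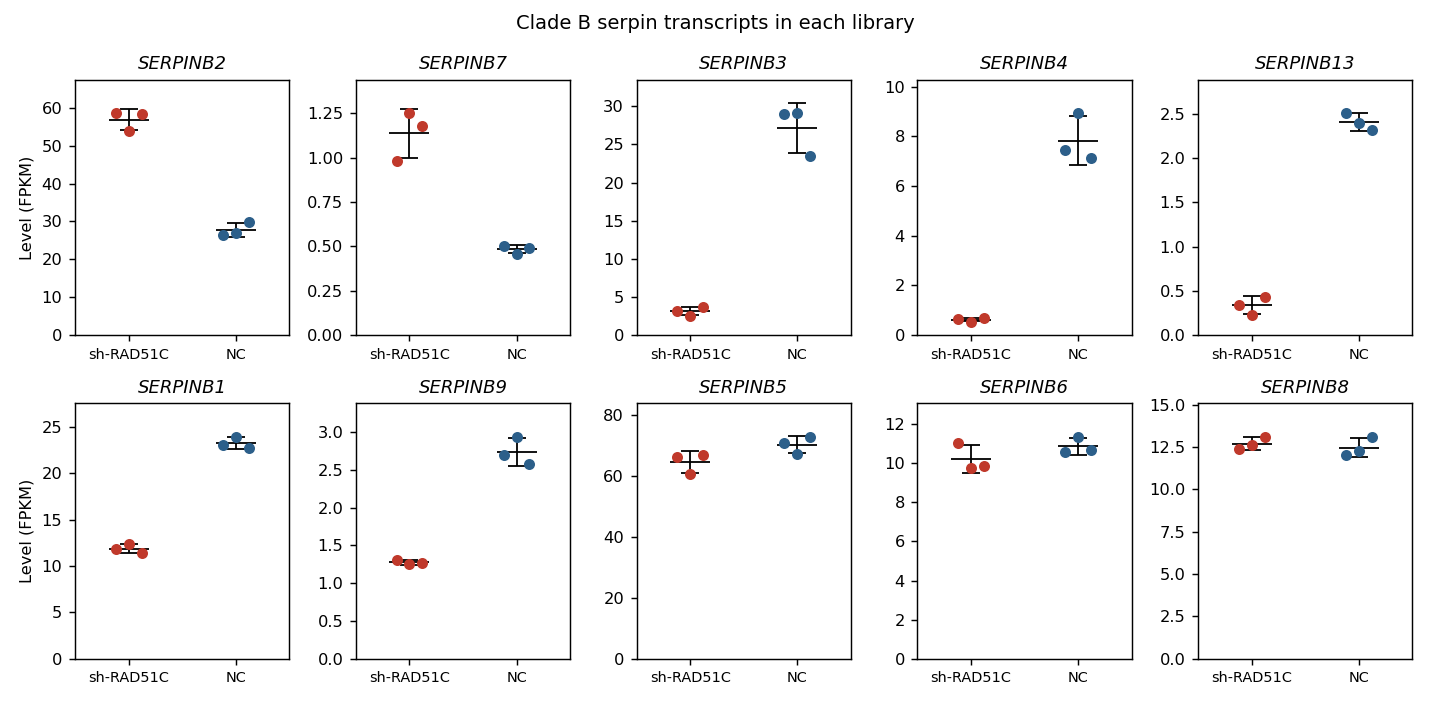
Level in FPKM (vertical axis, from 0, scaled to each gene) of the 10 clade B serpins in each sh-RAD51C and NC library; points are libraries, and horizontal and vertical bars give the mean and SD of 3. SERPINB2 and SERPINB7 are higher in sh-RAD51C, SERPINB1, SERPINB3, SERPINB4, SERPINB9 and SERPINB13 are lower, and SERPINB5, SERPINB6 and SERPINB8 lie close to NC.

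Across the family 9 of 10 members averaged 1 FPKM or more and entered the fit over 11152 genes (limma, Benjamini-Hochberg adjusted p under 0.05). That fit called 7 of them, 1 higher and 6 lower, where it called 49.4% of all genes tested, 23.2% higher and 26.2% lower; since the members were picked on this contrast, nothing is read from their count. SERPINB4 and SERPINB13 passed the filter on low values only through their level in NC. SERPINB5 was not called without sh-RAD51C 2, NC 1 or NC 3, and SERPINB6 was called without sh-RAD51C 1. Groups did not overlap for 7 of the 9 members tested, 1 higher and 6 lower, against 58.4% of genes tested, 27.6% higher and 30.8% lower, and they did not overlap for SERPINB7 either. The median log2 difference was -0.42 over the 10 members and -0.71 over the 9 tested, and that of all genes tested was -0.01.

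**Figure D2:**
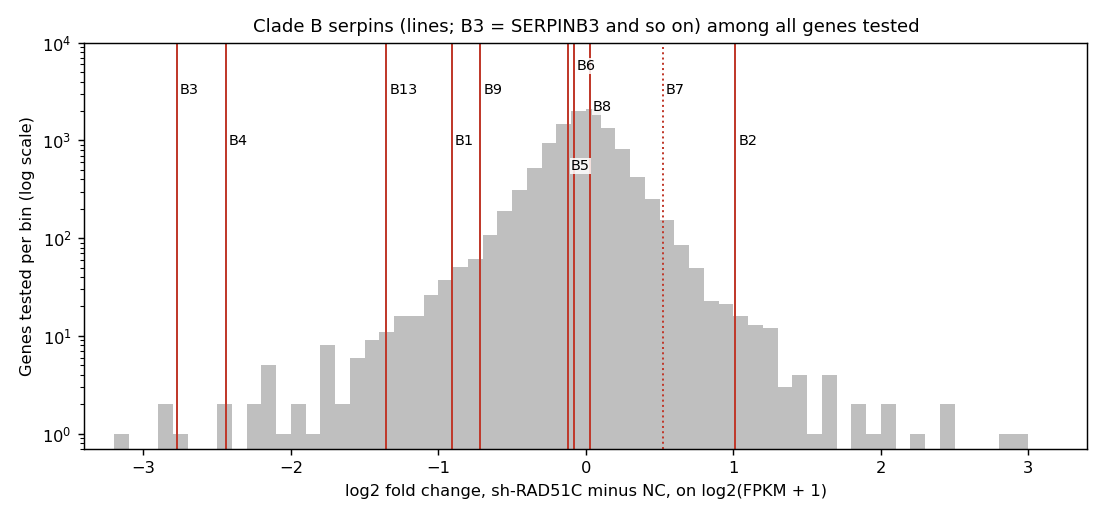
Number of genes tested (vertical axis, log scale) by log2 difference, sh-RAD51C minus NC, on log2(FPKM + 1), with a line for each clade B serpin; the dotted line is SERPINB7, which was under the filter. SERPINB3 at -2.77 and SERPINB4 at -2.44 lie in the far lower tail, and SERPINB5, SERPINB6 and SERPINB8 lie in the bulk.

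In order along chromosome 18 the lower and higher members were not interspersed. SERPINB5 at one end of the cluster and SERPINB8 at the other differed little. Between them came SERPINB13, SERPINB4 and SERPINB3, all lower, and then SERPINB7 and SERPINB2, both higher. The cluster from SERPINB5 to SERPINB8 spans chr18:63476761-64019779. SERPINB12 and SERPINB10, which lie within it, were near 0, at 0.0601, 0.0411 and 0.0134 FPKM for SERPINB12 in sh-RAD51C and 0.00705, 0.0203 and 0.0203 FPKM in NC, from at most 9 reads. SERPINB11 had no row under that symbol among the deposited values.

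The genes around the clusters were taken by position and not by their own values, and were tested. The clusters themselves were picked with earlier results of these data known. Within 1 Mb of the chromosome 18 cluster, 4 other genes passed the filter, and 0 of them were called by limma against 49.4% of all genes. They were KDSR, an enzyme of ceramide synthesis, the endosomal sorting ATPase VPS4B, the phosphatase gene PHLPP1 and ZCCHC2, with log2 differences of 0.02, 0.01, 0.06 and -0.17 and adjusted p from 0.0743 for ZCCHC2 to 0.941 for VPS4B. ZCCHC2 alone of the 4 had an unadjusted limma p under 0.05 (0.0397), and voom on inferred reads, added after seeing the data, called it (adjusted p = 0.04). Around the chromosome 6 cluster 7 genes passed the filter, with 3 called higher, 2 called lower and 2 uncalled.

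PXDC1 had the smallest adjusted p of these neighbours, at 9.45 ± 0.3 FPKM in sh-RAD51C and 5.17 ± 0.528 FPKM in NC (SD, n = 3 each). Its log2 difference was 0.76 ± 0.07 (SE; limma adjusted p = 3.53e-06). The tubulin gene TUBB2A averaged 9.24 ± 0.508 FPKM in sh-RAD51C and 5.63 ± 0.844 FPKM in NC, and it has close paralogs. WRNIP1, a DNA replication and repair ATPase, rose by a log2 difference of 0.23, and the quinone reductase gene NQO2 fell by 0.33. The call of SLC22A23 (-0.23) held in 9 of its 15 fits. These genes therefore went both ways beside SERPINB1 and SERPINB9, which were lower, and SERPINB6, which was not called with all libraries.

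**Figure D3:**
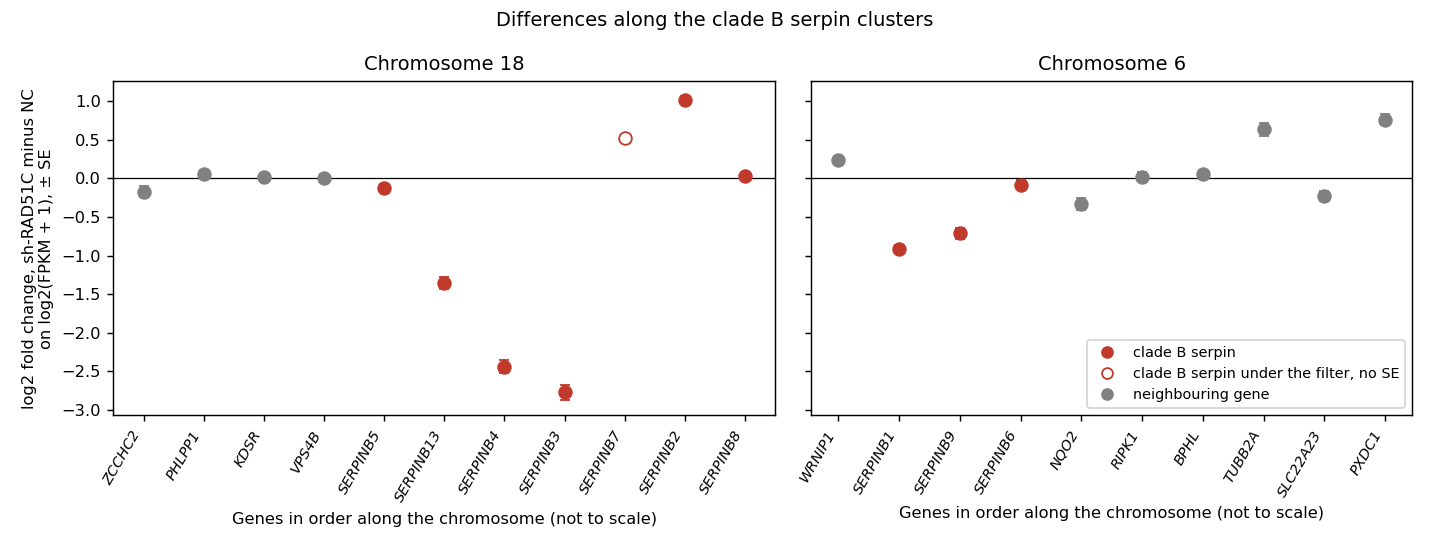
Log2 difference, sh-RAD51C minus NC, on log2(FPKM + 1) (vertical axis, with SE) of clade B serpins and of neighbouring genes tested, in order along chromosome 18 (left) and chromosome 6 (right), not to scale. On chromosome 18 the 4 neighbours lie near 0, SERPINB13, SERPINB4 and SERPINB3 lie from -1.35 to -2.77, and SERPINB7 (open, under the filter) and SERPINB2 lie above 0.

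Levels set side by side are per gene length, so members can be ranked within a group. In sh-RAD51C the order was SERPINB5, SERPINB2, SERPINB8, SERPINB1, SERPINB6, SERPINB3, SERPINB9, SERPINB7, SERPINB4 and SERPINB13, and among neighbours in that order the libraries of SERPINB8 and SERPINB1 overlapped and no others did. In NC the order was SERPINB5, SERPINB2, SERPINB3, SERPINB1, SERPINB8, SERPINB6, SERPINB4, SERPINB9, SERPINB13 and SERPINB7, where SERPINB3 overlapped both SERPINB2 and SERPINB1. The summed level of the 10 genes was 167, 155 and 167 FPKM in sh-RAD51C 1, 2 and 3, against 185 FPKM in each NC library.

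SERPINB2 made up 35.2%, 34.7% and 35.0% of that sum in sh-RAD51C 1, 2 and 3, against 14.3%, 14.5% and 16.1% in NC 1, 2 and 3. SERPINB3 and SERPINB4 together made up 2.28%, 2.00% and 2.59% in sh-RAD51C, against 19.7%, 20.5% and 16.5% in NC. The share of SERPINB5 was 39.0% to 40.1% in sh-RAD51C and 36.2% to 39.4% in NC, so that its ranges overlapped.

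**Figure D4:**
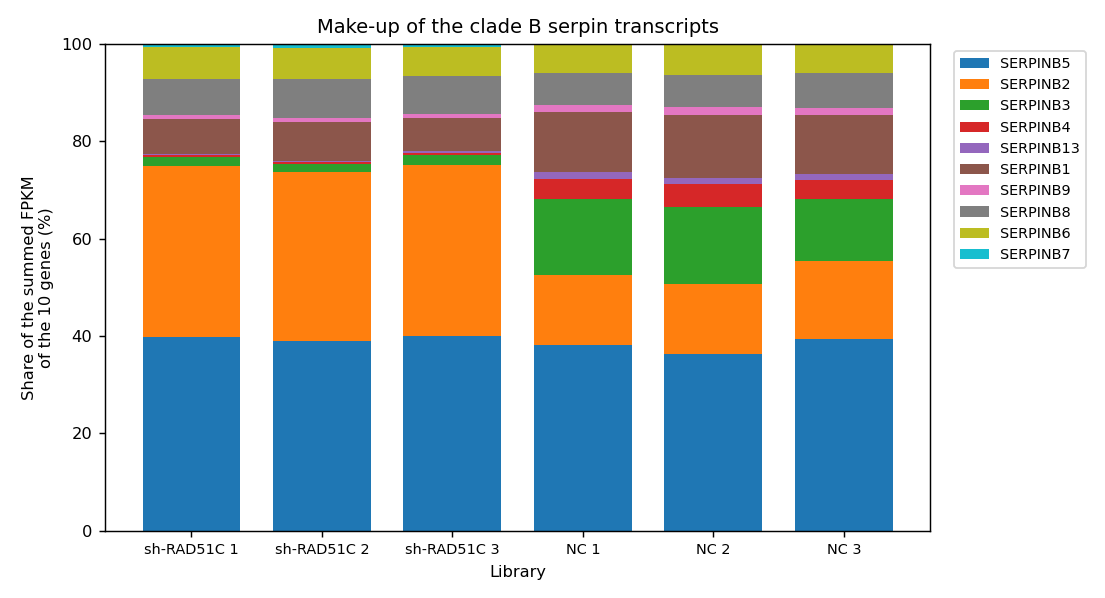
Share of the summed FPKM of the 10 clade B serpins (vertical axis, percent) held by each gene in the 3 sh-RAD51C and 3 NC libraries. SERPINB2 holds 34.7% to 35.2% in sh-RAD51C libraries and 14.3% to 16.1% in NC libraries, and SERPINB3 and SERPINB4 together hold 2.00% to 2.59% in sh-RAD51C and 16.5% to 20.5% in NC.

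Serpins of other clades were looked at beside the members. SERPINE2, a secreted inhibitor of thrombin and plasminogen activators, was at 45.9 ± 2.04 FPKM in sh-RAD51C and 69.2 ± 2.95 FPKM in NC (SD, n = 3 each), a log2 difference of -0.58 ± 0.04 (SE; limma adjusted p = 1.51e-06). SERPINH1, the collagen chaperone, was not called, with a log2 difference of -0.01 ± 0.04 (SE; limma adjusted p = 0.801).

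Candidate protease partners of clade B serpins were listed with the urokinase receptor, and 18 of 31 passed the filter. By limma 5 rose, 10 fell and CTSH, CASP8 and ST14 were uncalled, with a median log2 difference of -0.13; 49.4% of all genes tested were called. PLAU, which encodes urokinase, the target of SERPINB2, was at 195 ± 6.38 FPKM in sh-RAD51C and 104 ± 0.494 FPKM in NC (SD, n = 3 each), a log2 difference of 0.89 ± 0.04 (SE; limma adjusted p = 1.29e-08). Its receptor gene PLAUR rose by 0.41, while PLAT, the tissue-type activator, fell to 15.6 ± 0.976 FPKM in sh-RAD51C, against 35.7 ± 2.51 FPKM in NC (log2 difference -1.14, limma adjusted p = 7.34e-08).

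Of the cathepsins named above as targets of SERPINB3 or SERPINB13, the genes of L and K fell and that of S was called higher. CTSL was at 22.4 ± 1.03 FPKM in sh-RAD51C and 27.6 ± 0.831 FPKM in NC (SD, n = 3 each; limma adjusted p = 0.000252). CTSK fell by 0.47 on the log2 scale. CTSS was called higher at 0.18, a call that held in 10 of 16 fits. Of the other cysteine cathepsins tested CTSV and CTSB fell by 0.31 and 0.22, and CTSH was uncalled. Furin, the target of SERPINB8, fell by 0.17.

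The genes of neutrophil elastase and proteinase 3, targets of SERPINB1, and of granzyme B, the target of SERPINB9, were close to 0. ELANE averaged 0.00533 FPKM in sh-RAD51C and 0.0482 FPKM in NC, and GZMB averaged 0.0885 FPKM in sh-RAD51C and 0.0102 FPKM in NC. Of the caspases on the list CASP4 rose by 0.36 and CASP10 fell by 0.39, and CASP1 fell by 0.27 with its call lost in 1 of 16 fits. The calls of PRSS3 and CAPN1 were lost in 5 fits each, and that of KLK5 in 1.

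**Figure D5:**
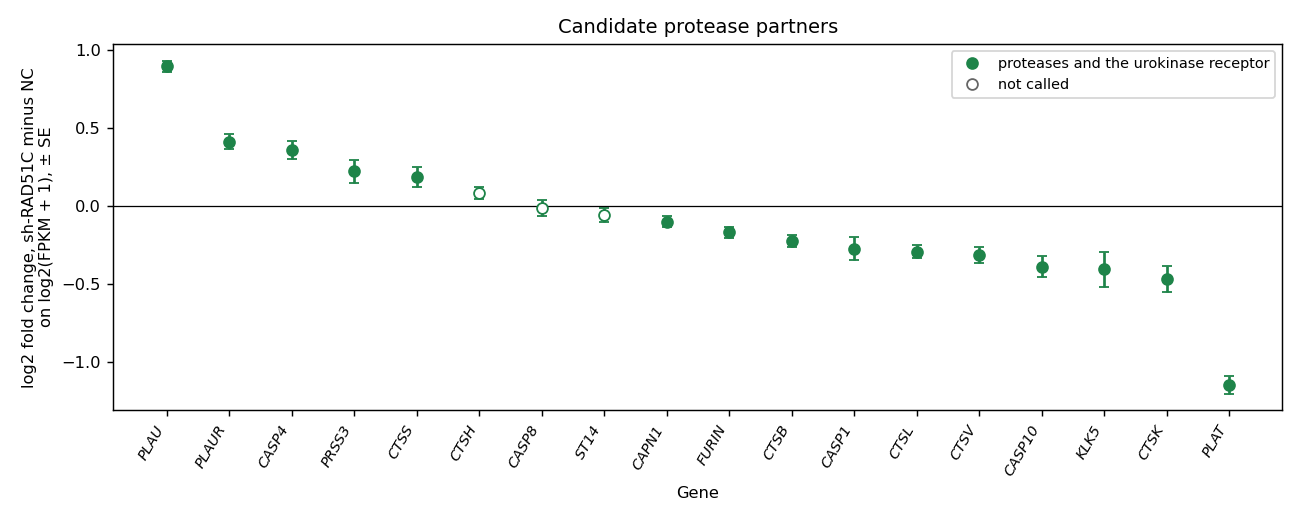
Log2 difference, sh-RAD51C minus NC, on log2(FPKM + 1) (vertical axis, with SE) of the proteases and the urokinase receptor; open symbols were not called by limma. PLAU at 0.89 and PLAT at -1.14 are the ends of the list.

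The genes whose profiles over the 6 libraries lay nearest to those of SERPINB3 and SERPINB2, the members lowest and highest by log2 difference on this scale, were found by the root mean square difference of log2(FPKM + 1) after centring each gene. The centring kept the difference between the groups, on which the members were picked. Near profiles therefore mostly mean a like log2 difference, such as -2.82 for H19 beside -2.77 for SERPINB3. Whether these genes vary together within a group was not tested. Outside the family, nearest to SERPINB3 were the noncoding RNA H19 (0.145), the elastase inhibitor gene PI3 (0.18), the fatty acid carrier gene FABP4 (0.211), the water channel gene AQP3 (0.241) and TNFSF10, which encodes the death ligand TRAIL (0.284). SERPINB4 lay at 0.199 from SERPINB3 on the same measure, nearer than FABP4, and SERPINB13 at 0.717. The scale understates changes of low genes such as SERPINB13, whose mean was 7.15-fold lower in sh-RAD51C, against 8.7-fold for SERPINB3. Those nearest to SERPINB2 were AADAC (0.0536), the EGFR ligand gene AREG (0.0597), the sphingosine kinase gene SPHK1 (0.0613), the noncoding RNA CYTOR (0.0621) and the proteoglycan gene SPOCK1 (0.063). AREG averaged 109 ± 5.89 FPKM in sh-RAD51C and 57.3 ± 1.39 FPKM in NC, and AADAC averaged 3.49 ± 0.304 FPKM in sh-RAD51C and 1.25 ± 0.0611 FPKM in NC (SD, n = 3 each).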

How the data were processed

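RNA of 6 libraries of 5637 cells was sequenced. The deposited values are FPKM, calculated by the authors for 23024 gene symbols. The genome build is hg38, per the submitters' processing notes. Per the submitters' processing notes the authors used R 3.2.0 and DESeq2, at steps that are not stated. Aligner, counting, strand setting and annotation: not given in the sources used here. Columns were matched to libraries by title.

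For the comparison, genes averaging at least 1 FPKM were taken as log2(FPKM + 1) into limma 3.58.1 (R 4.3.3; trended empirical Bayes, group the only term), with Benjamini-Hochberg adjustment over 11152 genes and calls at 0.05. "Fits" counts this one and its alternatives that kept the gene. Whole reads were inferred from the FPKM steps, with RefSeq gene lengths giving each library's total. The procedures were tested on simulated data. Replicate numbers were not taken to pair libraries.

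Members, lists and motifs were chosen with earlier results of these data known. Named genes are the members, up to 4 genes per list by adjusted p with others where counts were small, and the 5 nearest profiles to the members highest and lowest by log2 difference. Some list genes outside that rule (SLC22A23, CTSL, CTSS, CTSV, CTSK, CTSB, FURIN and the caspases among them) were named after their values were seen. Gene positions are from GENCODE 29 on GRCh38, the assembly also called hg38, and promoter sequences from RefSeq on GRCh38.p14, where all 10 members matched. Coding sequences, used in place of the proteins planned, are the longest open reading frame of GENCODE transcripts, aligned with Biopython 1.88. Counting errors cover counting only. Some results of the other serpins are not reported here. Python 3.11.15, numpy 2.4.6 and pandas 2.3.3 were used.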

Additional observations from a re-analysis of the deposited data

How the results depend on the processing

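Every member kept the sign of its log2 difference under all alternatives in which it had a value. The members at the ends changed. With log2(FPKM + 0.1) SERPINB4 was lowest (-3.46, against -3.09 for SERPINB3) and SERPINB7 highest (1.08, against 1.04 for SERPINB2). With voom on inferred reads SERPINB4 was again lowest (-3.64, against -3.12) and SERPINB7 highest (1.22, against 1.04). As TPM SERPINB4 was lowest (-2.99, against -2.96). The median of the 10 members, -0.42, was -0.54 with log2(FPKM + 0.1), -0.50 after rescaling to TPM and -0.54 with limma's voom on inferred reads, the last chosen after seeing the data; the cause was not tested. It was -0.63 with quantile normalization over 9 members and -0.10 at a mean of at least 5 FPKM over 6 members, where other members make up the median. It was -0.12 with SERPINB3 and SERPINB4 added together, also chosen after seeing the data, over 9 genes. Leaving out each library gave -0.43 to -0.39. The 5511 genes called became 4513 to 5485 without a library, the 15 protease list calls 12 to 15 and the 5 neighbour calls 4 to 5. SERPINB5 lost its call without sh-RAD51C replicate 2, NC replicate 1 or NC replicate 3, with no filter, at one median and as TPM, and SERPINB6 gained a call without sh-RAD51C replicate 1 (log2 difference -0.13). With the replicate number as a replicate block 5569 genes were called and the members' median was -0.42. Deviations of same-numbered libraries correlated at 0.19, 0.026 and 0.091 over genes, so the libraries share only a number. SERPINB4 and SERPINB13 in sh-RAD51C and SERPINB7 in NC rest on few reads, which limits their precision.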
